A study of Mus musculus with 24 samples.

Results

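Nrf2, encoded by Nfe2l2, and 9 genes known as its antioxidant targets were followed across mouse epidermis that lacks or keeps Mad2. The genes were found by their names in the array annotation. Of the 10 genes sought, 9 had at least 1 probe among the 28902 distinct gene names of the array, with 17 probes in all. Gsr, the gene of glutathione reductase, was not analysed here. The only probe of Gclc was above background in 1 of 24 arrays, so 8 genes entered the tests, beside 14392 genes in all.

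Nrf2 is a transcription factor that is made steadily and destroyed steadily: in unstressed cells its partner Keap1 hands it to the Cul3 ubiquitin ligase. Oxidants and electrophiles modify Keap1, Nrf2 then accumulates, pairs with a small Maf protein and binds antioxidant response elements in the promoters of its targets, while Bach1 competes for the same sites. The targets make glutathione, reduce thioredoxin and peroxiredoxin, and conjugate or reduce reactive compounds. In skin the pathway is known for protecting keratinocytes against ultraviolet light and wound oxidants, and since Nrf2 is controlled mainly as a protein, its mRNA need not follow its activity.

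The mice were of a mixed B6-129Sv strain and carried floxed alleles of Mad2, a spindle checkpoint protein encoded by Mad2l1. Mutants were Mad2f/f; K14Cre+, with Cre driven by the promoter of keratin 14, a keratin of basal keratinocytes, and the controls of postnatal days 3 to 20 were Cre-negative. Epidermis was peeled from dermis after trypsin, and its RNA was put on Illumina BeadChips, 1 array per sample. There were 2 mutant and 4 control arrays at postnatal day 3 (P3), 2 and 2 at P6, 2 and 2 at P13, and 2 and 3 at P20. The labels record no phenotype in P3 mutants and call mutants nude from P6. The adult arrays were 1 Mad2f/f; K14Cre+ mutant, 2 mutants that also carried 1 floxed allele of p53 (Mad2f/f; p53f/+; K14Cre+) and 1 control that was Cre-positive with a single floxed Mad2 allele (Mad2f/+; K14-Cre+). A further P3 array entered no comparison, because its genotype is that of a mutant and its sample type says control. The labels do not say that each array came from a separate animal, so the p-values measure the spread between these samples, which may be technical.

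Promoters of 3 members are shown because these genes, Gclm, Srxn1 and Slc7a11, behaved differently from each other in the mutants, as described below. The sequences are from RefSeq (GRCm38.p6), where 6 of the 10 genes had promoter entries, with 8 start sites in all. Each window of 250 bases before a start was searched on both strands for the antioxidant response element core TGACNNNGC, the AP-1 site TGANTCA and the amino acid response element TGATGNAA, the last a site bound by ATF4. Capitals mark the matches. Gclm is shown as the 180 bases before the annotated gene (chr3:122245307-122245486, plus strand), Srxn1 as the whole window directly before the gene (chr2:152105274-152105523, plus strand), and Slc7a11 as the 27 bases that span its matches (chr3:50443653-50443679, minus strand), in a window that lies before an internal start of the annotated gene.
Gclm: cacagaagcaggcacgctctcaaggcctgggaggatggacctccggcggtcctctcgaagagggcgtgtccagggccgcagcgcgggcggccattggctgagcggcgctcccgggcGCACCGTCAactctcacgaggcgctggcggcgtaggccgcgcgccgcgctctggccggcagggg
Srxn1: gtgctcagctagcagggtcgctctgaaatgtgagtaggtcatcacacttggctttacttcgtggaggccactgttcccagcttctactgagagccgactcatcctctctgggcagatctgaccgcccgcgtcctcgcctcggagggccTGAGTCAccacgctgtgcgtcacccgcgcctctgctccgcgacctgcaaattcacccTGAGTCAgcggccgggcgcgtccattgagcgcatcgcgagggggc
Slc7a11: TGATGCAAacctggagaatTTGCATCA
The Gclm match is an antioxidant response element core on the opposite strand, 134 to 126 bases before the start. That start lies inside the annotated gene, past the end of the sequence shown. Srxn1 has AP-1 matches at 102 to 96 and at 45 to 39 bases before the start. No window held both an AP-1 match and the antioxidant response element core as searched here, TGACNNNGC. The Srxn1 match at 45 to 39 bases is followed by G and C. With them it differs from that core only by a G in place of its first C. Forms of the core with another base at that place were not searched, so such a form in Srxn1 is not excluded. Slc7a11 has amino acid response element matches at 66 to 59 bases and, on the opposite strand, at 47 to 40 bases before the start. The antioxidant response element core also lies in windows of Nfe2l2 and Txnrd1, which makes 3 of the 6 members. It lies in 10.2% of 32851 mouse promoters, the AP-1 site in 6.75% and the amino acid response element in 3.45%. A match is a string of letters and was not tested as a binding site.

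Levels below are log2 intensities after background correction and quantile normalization. A difference is a difference of group means on that scale with its standard error (SE) from limma, and "rose" or "fell" is written only of genes with a Benjamini-Hochberg adjusted p, over all genes, under 0.05. Per array 23.3% to 40.1% of probes were above background, and the 75th percentile of signal lay 21.2 to 182 units above it. Precision is limited by how few arrays each group has. Where a group has 1 array, or is left with 1 within a chip or after an array is left out, the spread comes from the other groups, and the lone array is assumed to vary as they do. Mad2l1, the targeted gene, fell at P3, P6, P13, P20 and in adults, by at least 1.84-fold at P20 and at least 8.36-fold at P13. It was above background in none of the 3 adult mutants, so those with and without p53f/+ could not be compared. The position of its probe relative to the deleted exons was not given in the sources used here.

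Markers of basal and suprabasal keratinocytes were bright in every array. The sum of 11 suprabasal markers was 219200 to 229100 in P6 mutants and 132000 to 171300 in P6 controls. It was 229100 to 248100 against 93260 to 101800 at P13, and 238900 to 241000 against 177800 to 209500 at P20. Of these 11, 4 rose at P6, 6 at P13 and 4 at P20, where 1 fell. Their part in the results of the members was not tested. Other cells were present too, and unequally. The summed intensity of 14 fibroblast markers was 1637 to 1784 in P6 mutants and 51240 to 61140 in P6 controls. It was 35500 to 36790 in P13 mutants and 36060 to 50100 in P13 controls, and at P20 it was 2123 to 3663 in mutants and 3475 to 6640 in controls. At P3 it was 2448 to 5066 in mutants and 1420 to 2455 in controls. Among adults it was 52000 in the mutant without p53f/+, 7005 and 2282 in the mutants with it, and 114300 in the control. In that control the sums were 85700 for basal and 111800 for suprabasal markers. Of the 14 fibroblast markers, 8 were above background in neither P6 mutant, and all 14 were above it in both P6 controls. Markers of wounded epidermis moved with genotype, from 97460 to 110900 in P3 controls to 131800 to 149500 in P3 mutants (3 of 12 rose), from 70600 to 72030 in controls to 226400 to 313200 in mutants at P6, from 44820 to 52820 to 312200 to 330700 at P13, and from 37310 to 50320 to 225200 to 236100 at P20. Markers of the hair shaft were lower in mutants at P3, P6 and P13. The sum of 10 of them was 8004 to 12340 in P3 mutants and 99930 to 196100 in P3 controls (7 of 10 fell), 9384 to 12910 against 87110 to 100400 at P6, 314.8 to 959.8 against 209500 to 219100 at P13 (10 of 10 fell), and at P20 the sums overlapped, at 125.7 to 335.4 against 253.6 to 2698. Fewer cells of a type and less RNA per cell cannot be told apart in these samples.

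The members did not move as a block. At P3, 1 of the 8 tested genes rose (Slc7a11) and none fell, where 1.91% of all genes changed, 0.285% upward and 1.63% downward. At P6, 3 rose (Hmox1, Srxn1 and Gsta4) and none fell, where 22.4% of all genes changed, 9.36% upward and 13% downward. At P13, 1 rose (Gsta4) and 1 fell (Gclm), where 20.3% changed, 9.85% upward and 10.4% downward. At P20, 3 rose (Srxn1, Gsta4 and Slc7a11) and none fell, where 9.97% changed, 4.38% upward and 5.59% downward. The median difference of the 8 genes was 0.21, 1.09, 0.66 and 0.57 at P3, P6, P13 and P20, against medians of 0.03, -0.03, -0.01 and -0.03 over all genes. In the mean over P6, P13 and P20, 4 genes rose (Hmox1, Srxn1, Gsta4 and Slc7a11) and none fell, where 32.3% of all genes changed, 13.6% upward and 18.7% downward. Without P13 in that mean the same 4 genes rose. Without P20, 3 rose and Gclm fell, and Slc7a11 did not pass (0.54, adjusted p = 0.201). Without P6, 3 rose, and Hmox1 did not pass (0.79, adjusted p = 0.295).

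**Figure D1:**
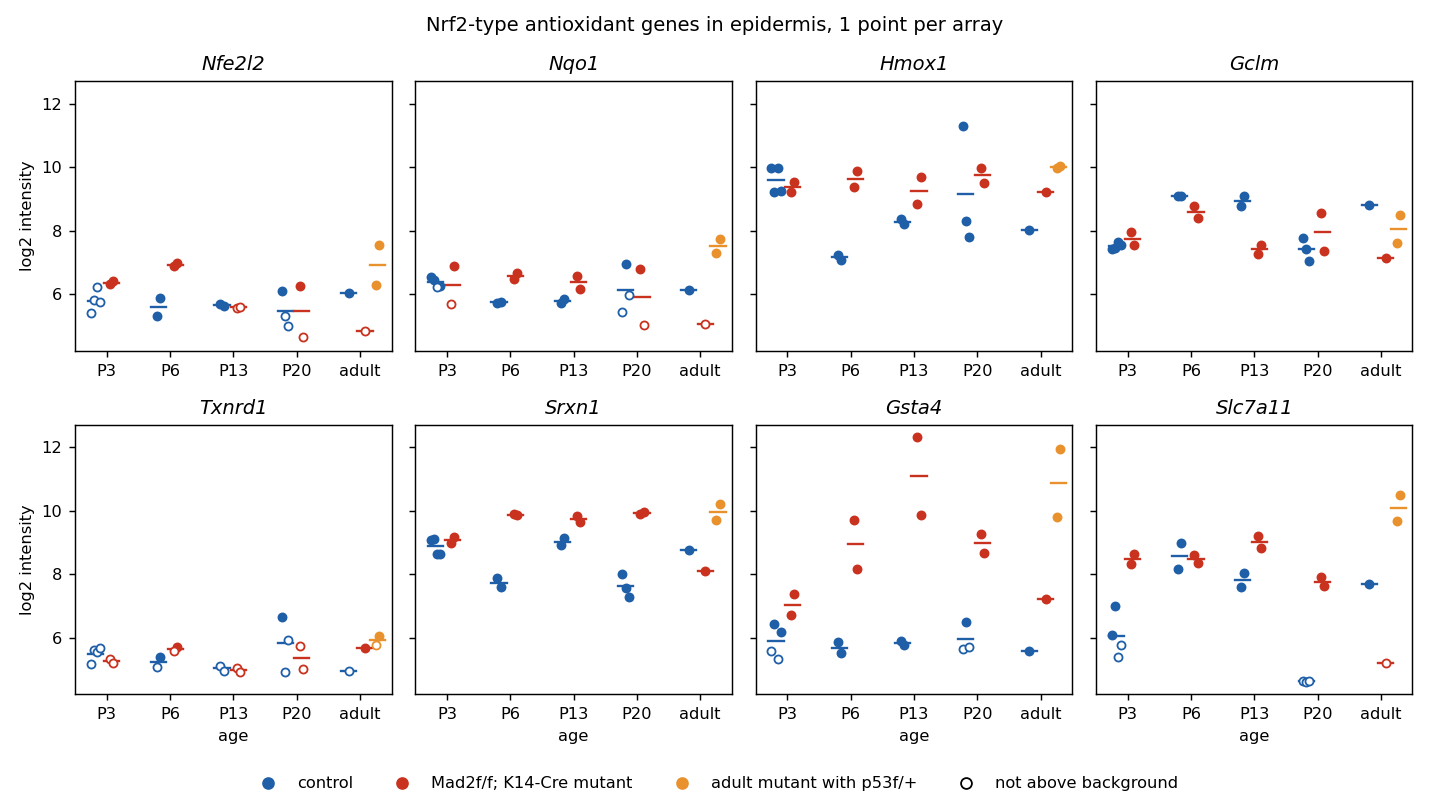
Log2 intensity of the 8 tested members in each array (1 point per array, bars are group means), by age on the x axis, with controls in blue, Mad2f/f mutants in red and adult p53f/+ mutants in orange. Open points were not above background. Gsta4 mutants lie above controls at every age, though the P3 difference did not pass the test. The 3 P20 controls of Slc7a11 lie at the floor, and 1 P20 control of Hmox1 stands at 11.31.

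Nfe2l2 itself was dim, above background in 13 of 24 arrays by its brighter probe and in none by its other. At P6 its level was 6.89 and 6.99 in the mutants and 5.31 and 5.90 in the controls. The groups did not overlap, but the difference of 1.34 ± 0.48 did not pass the test (adjusted p = 0.0592), and with the chip as a fixed block it did (1.63, adjusted p = 0.0033). At P3 the mutants were at 6.34 and 6.41 and the controls from 5.41 to 6.23, with no control above background (at least 1.14-fold, adjusted p = 1). At P13 all 4 arrays lay between 5.58 and 5.71, and at P20 the mutants, at 6.27 and 4.66, enclosed the 3 controls. Differences there were -0.07 ± 0.48 and -0.01 ± 0.44.

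Among the genes that regulate Nrf2, Keap1, which holds Nrf2 for destruction, was above background in every array compared and passed at none of the 4 ages. Its differences were 0.07 ± 0.22 at P3, -0.06 ± 0.25 at P6, 0.51 ± 0.25 at P13 and 0.04 ± 0.23 at P20. Of 9 tested regulators and partners, none changed at P3 or P20 and 1 rose at each of P6 and P13, where 9.36% and 9.85% of all genes rose, a share close to 1 of 9. These were Cul3, the ligase scaffold, at P6 (0.92 ± 0.30, adjusted p = 0.0336) and Bach1, the repressor of Nrf2 sites, at P13 (2.22 ± 0.43, adjusted p = 0.00175). In the mean over P6 to P20 Bach1 and the small Maf gene Maff rose, by 1.21 ± 0.24 and 1.06 ± 0.30 (adjusted p = 0.00114 and 0.0127). The Maff probe was above background in 5 of 6 mutant and 1 of 7 control arrays.

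Gclm encodes the modifier subunit of glutamate-cysteine ligase, which makes the first peptide bond of glutathione. Its level was 7.29 and 7.55 in P13 mutants against 8.79 and 9.11 in P13 controls. The mutants lay below the controls, and Gclm fell at this age (-1.53 ± 0.37, adjusted p = 0.00689). The hair shaft sums given above fell with it, and the sum of 7 melanocyte markers was 7107 to 8242 in these mutants and 29870 to 30590 in these controls. Their part in the Gclm result was not tested. Without P13 mutant 1 the difference was -1.40 (adjusted p = 0.0679) and without P13 control 2 it was -1.37 (adjusted p = 0.0798). At P6 the mutants, at 8.80 and 8.40, also lay below the controls, at 9.10 and 9.10, with a difference of -0.50 ± 0.37 (adjusted p = 0.377). At P20 the mutants were at 8.58 and 7.37 and the controls at 7.78, 7.44 and 7.06, which overlap (0.55 ± 0.33, adjusted p = 0.357). Without P20 mutant 2 the P20 difference passed (1.15, adjusted p = 0.0461). Gclm rose at no age in the comparison of the full groups. The catalytic subunit gene, Gclc, lay between 4.55 and 5.53 in all 24 arrays and could not be compared.

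Slc7a11 encodes xCT, the cystine importer that feeds glutathione synthesis, and is a known target of ATF4 as well as of Nrf2. Its brightest probe read 8.32 and 8.63 in P3 mutants and 6.08, 6.99, 5.40 and 5.78 in P3 controls, of which 2 were above background. Every mutant array was higher than every control, and Slc7a11 rose (2.41 ± 0.37, adjusted p = 0.0009). It was the only member past the threshold at P3. The labels record no phenotype at that age, but the hair shaft markers were already lower and the wound markers higher in these mutants, as given above, and their part in the Slc7a11 result was not tested. At P20 the mutants read 7.91 and 7.63, while the controls, at 4.64, 4.60 and 4.64, were not above background, a rise of at least 3.03-fold (adjusted p = 8.65e-05). The mutant lay above the controls on each of the 2 chips, at 7.91 against 4.64 on chip F and at 7.63 against 4.60 and 4.64 on chip G. The chips are not alike in signal. The arrays of chip G were deposited with background subtracted, and 23.3% to 26.9% of their probes were above background. On chip F the P20 arrays had 32.3% and 33.5%. At P13 the mutants, at 9.20 and 8.82, lay above the controls, at 7.61 and 8.06 (1.18 ± 0.42, adjusted p = 0.0613). With the chip as a fixed block this difference passed (adjusted p = 0.04). At P6 the mutants, at 8.60 and 8.36, lay between the controls, at 8.16 and 8.99, and the difference was -0.09 ± 0.42.

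The Slc7a11 probes disagreed at P6. A second probe read 7.64 and 7.59 in P6 mutants and 5.73 and 6.01 in P6 controls, a rise of 1.75 ± 0.34 (adjusted p = 0.00149, over all probes). By this probe Slc7a11 rose also at P13 (1.75 ± 0.34, adjusted p = 0.00185) and P20 (at least 2.68-fold, adjusted p = 0.000965), and at P3 the groups did not overlap but the difference of 0.96 ± 0.29 did not pass (adjusted p = 0.189). Another probe, above background in 4 of 24 arrays, changed at none of the 4 ages. The transcript positions of the probes were not used here. Across the 19 assigned P3 to P20 arrays the brightest probe and the second correlated with r = 0.586, as a description.

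**Figure D2:**
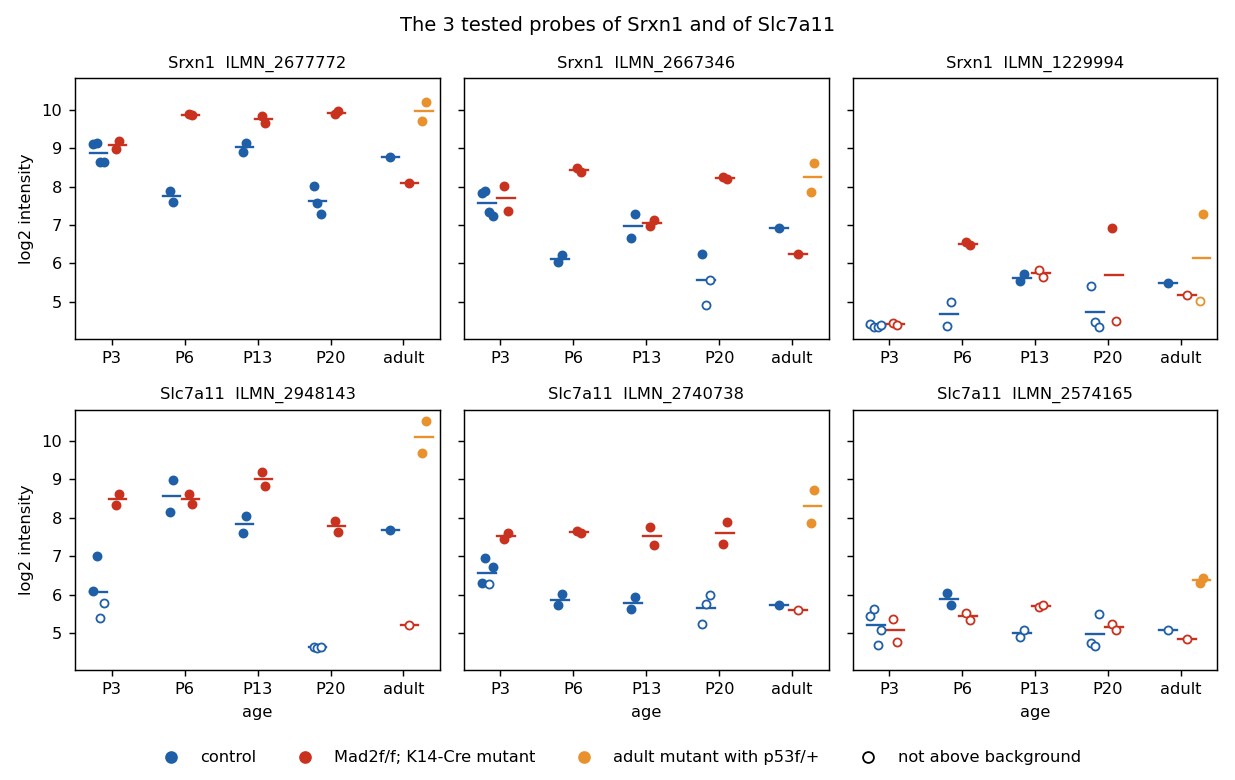
Log2 intensity of the 3 tested probes of Srxn1 (top) and of Slc7a11 (bottom) in each array, by age, with the same colours and open points for arrays not above background. The first and second Slc7a11 probes separate at P6, where controls average 8.57 by the one and 5.87 by the other. The third probe of each gene is near background in most arrays.

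Srxn1 encodes sulfiredoxin, which restores over-oxidized peroxiredoxins. Its level was 9.89 and 9.86 in P6 mutants and 7.88 and 7.60 in P6 controls, and it rose by 2.13 ± 0.28 (adjusted p = 3.98e-05). At P20 it was 9.89 and 9.96 in mutants and 8.01, 7.58 and 7.28 in controls, and it rose by 2.30 ± 0.25 (adjusted p = 3.13e-05). The P20 difference was 1.88 within chip F, with 1 array of each genotype, and 2.53 within chip G, with 1 mutant and 2 controls. At P13 the mutants were at 9.85 and 9.66 and the controls at 8.91 and 9.14. The difference of 0.73 ± 0.28 missed the threshold (adjusted p = 0.0750) and passed it with the chip as a fixed block (adjusted p = 0.0336). At P3 the groups overlapped, with mutants at 8.99 and 9.18 and controls from 8.64 to 9.13 (0.21 ± 0.24). Over the 4 ages Srxn1 ran from 8.99 to 9.96 in mutants and from 7.28 to 9.14 in controls. A second probe rose likewise at P6 (2.31 ± 0.39) and P20 (2.65 ± 0.36) and differed by 0.07 ± 0.39 at P13, and the third, dim one did not pass at any age. By the second probe the P13 mutants, at 6.97 and 7.13, were dimmer than those of P6, at 8.48 and 8.37, and of P20, at 8.25 and 8.21, which the first probe did not show. Txnrd1, which encodes cytosolic thioredoxin reductase, was above background in 5 of 24 arrays and passed at no age. Its level ran from 4.92 to 6.67.

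Gsta4 encodes a glutathione transferase that conjugates 4-hydroxynonenal, a product of lipid peroxidation. It differed more than any other member at P6 and P13. At P6 it read 9.72 and 8.16 in mutants and 5.85 and 5.51 in controls, a rise of 3.26 ± 0.74 (adjusted p = 0.0044). At P13 it read 12.33 and 9.88 in mutants and 5.89 and 5.78 in controls, a rise of 5.27 ± 0.74 (adjusted p = 0.00011). At P20 the mutants were at 9.28 and 8.68 and the controls at 5.64, 6.51 and 5.70, a rise of 3.03 ± 0.68 (adjusted p = 0.00924), with 1 of 3 controls above background. At each of these ages both mutants lay above every control, and the mutants of one age differed from each other most at P13. At P3 the mutants, at 6.71 and 7.36, already lay above the controls, which ran from 5.35 to 6.42, and the difference of 1.15 ± 0.64 did not pass (adjusted p = 0.819). Without P6 mutant 1 the P6 difference was 2.48 (adjusted p = 0.0736), and without P20 mutant 1 the P20 difference was 2.73 (adjusted p = 0.0563). Within chips F and G, each with 1 mutant, the P20 difference was 3.64 and 2.57 and did not pass (adjusted p = 0.0762 and 0.0759). Gsta4 belongs to a family of related sequences, and hybridization to other family members was not tested.

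Hmox1 encodes haem oxygenase 1, which breaks down haem and is controlled by Bach1 as well as Nrf2. At P6 its level was 9.38 and 9.87 in mutants and 7.25 and 7.09 in controls, and it rose by 2.46 ± 0.75 (adjusted p = 0.0256). Leaving out any 1 of the 4 arrays kept the difference between 2.21 and 2.71 but not the call, with adjusted p up to 0.15, and within chip C it was 2.38 (adjusted p = 0.164). At P13 mutants at 8.83 and 9.70 lay above controls at 8.37 and 8.21 (0.98 ± 0.75, adjusted p = 0.412). At P20 the mutants were at 9.99 and 9.51, between controls at 11.31, 8.32 and 7.82 (0.60 ± 0.68, adjusted p = 0.667). The control at 11.31 had a summed intensity of 74190 for 10 endothelial and blood markers, haemoglobin genes among them, against 2652 to 3646 in the other P20 controls, and the part of these cells in its Hmox1 level was not tested. Without that control Hmox1 rose at P20 (1.68, adjusted p = 0.00345). Within chip F, which holds it, the mutant was 1 array at 9.99, below the control, and within chip G the mutant, at 9.51, was above both controls. At P3 the groups overlapped between 9.21 and 9.99.

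Nqo1 encodes a quinone reductase and is among the most used readouts of Nrf2 activity. At P6 it read 6.49 and 6.68 in mutants and 5.73 and 5.76 in controls, which do not overlap (0.84 ± 0.51, adjusted p = 0.272). At P13 the mutants were at 6.58 and 6.17 and the controls at 5.74 and 5.84 (0.59 ± 0.51). At P3 and P20 the groups overlapped, with differences of -0.07 ± 0.44 and -0.21 ± 0.46. On chip F the P20 mutant was at 6.79 and the control, not above background, at 5.45. On chip G the mutant, at 5.04, was not above background, and the controls were at 6.94 and, not above background, at 5.99. Nqo1 changed at none of the 4 ages in the comparison of the full groups.

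**Figure D3:**
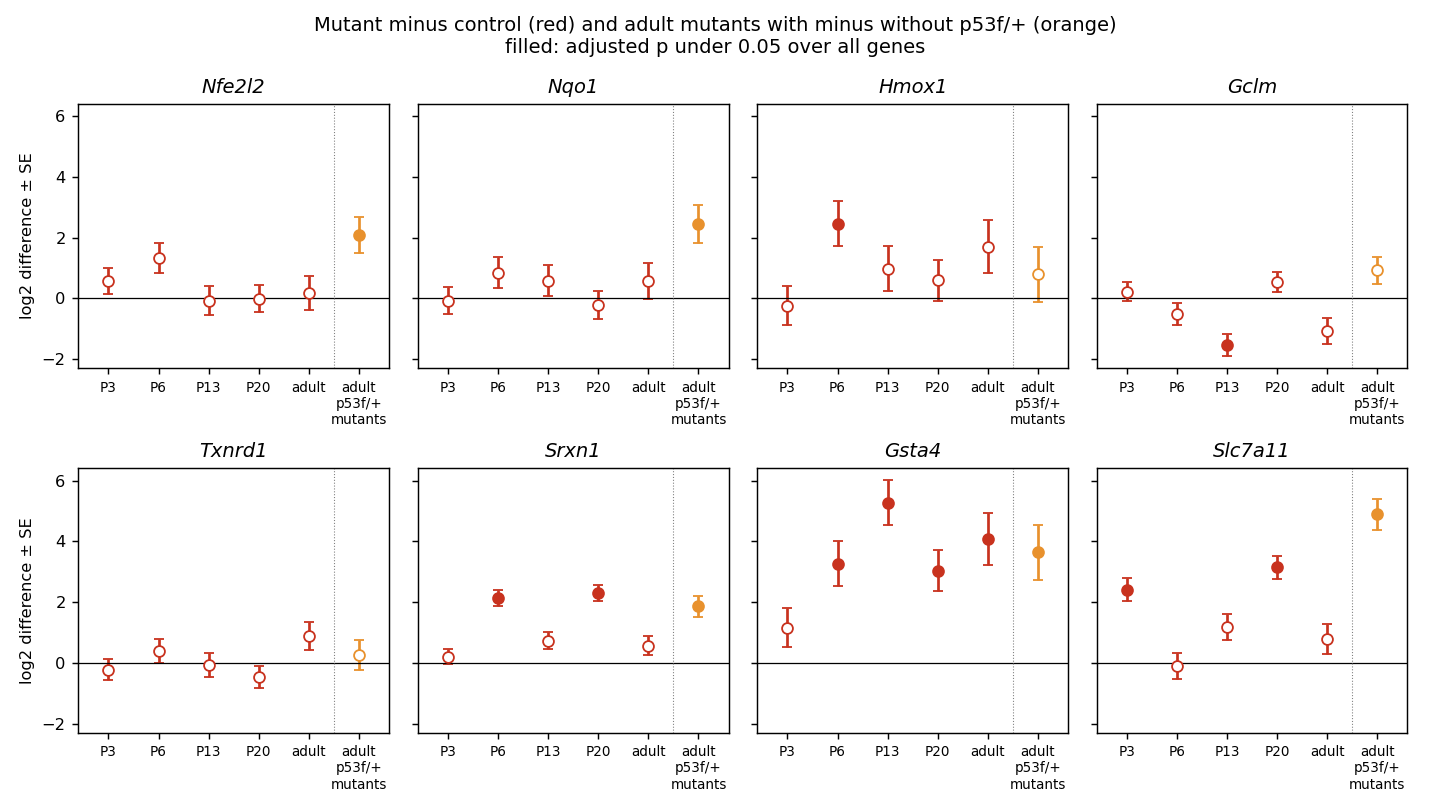
Difference of group means (log2, y axis) with its SE for each tested member, mutants minus controls at each age in red, and adult mutants with minus without p53f/+ in orange. Filled points have adjusted p under 0.05 over all genes. Gsta4 has the highest point, 5.27 at P13, Gclm the only filled point below 0, and Slc7a11 is filled at P3 and P20 but not at P6 or P13.

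The effect of genotype itself differed between ages for 4 members. Against P3, the P6 effect was larger in Srxn1 (by 1.93 ± 0.37, adjusted p = 0.00263) and smaller in Slc7a11 (by -2.50 ± 0.56, adjusted p = 0.00828), 2 genes where 10.8% of all genes differed, 4.5% upward and 6.26% downward. The P13 effect was larger in Gsta4 (by 4.12 ± 0.98, adjusted p = 0.0172) and lower in Gclm (by -1.76 ± 0.48, adjusted p = 0.0364), 2 genes where 7.88% differed, 4.05% upward and 3.83% downward. The P20 effect was larger in Srxn1 alone (by 2.10 ± 0.35, adjusted p = 0.00258), where 3.48% differed, 2.12% upward and 1.36% downward. From P6 to P13 the effect fell in 1 gene, Srxn1 (-1.40 ± 0.39, adjusted p = 0.0319), where 9.81% differed, 5.5% upward and 4.31% downward. This Srxn1 difference did not pass without any 1 of its 8 arrays (-1.54 to -1.26). From P6 to P20 the effect rose in 1 gene, Slc7a11 (3.24 ± 0.57, adjusted p = 0.0020), where 8.71% differed, 4.76% upward and 3.95% downward. From P13 to P20 it rose in 3 genes, Gclm (2.08 ± 0.50, adjusted p = 0.0179), Srxn1 (1.57 ± 0.37, adjusted p = 0.0179) and Slc7a11 (1.97 ± 0.57, adjusted p = 0.0476), where 7.51% differed, 3.65% upward and 3.86% downward. The Slc7a11 differences are those of its brightest probe, and the ones that involve P20 rest on controls below background. By the second probe the P6 effect minus the P3 effect was 0.79, of the opposite sign, the P20 effect minus the P6 effect was 0.18 (adjusted p = 0.903) and the P20 effect minus the P13 effect was 0.19 (adjusted p = 0.874). By the brightest probe the last of these passed under 3 of 11 other settings and without 2 of 9 arrays in turn. The mean effect of P6, P13 and P20 exceeded that of P3 in Srxn1 (1.52 ± 0.29, adjusted p = 0.0047) and Gsta4 (2.70 ± 0.77, adjusted p = 0.0463), where 6.36% of all genes differed, 3.44% upward and 2.93% downward. The Gsta4 call did not hold without 14 of the 19 arrays in turn (2.30 to 3.11 over all of them, adjusted p up to 0.218), and the Gclm difference between P13 and P3 did not pass without any 1 of its 10 arrays (-1.95 to -1.56).

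The control epidermis changed with age too, and age cannot be told apart from chip, since each age had its own chips. By a moderated F test over P3, P6, P13 and P20 controls, 4 members changed (Hmox1, Gclm, Srxn1 and Slc7a11), where 44.5% of all genes did. From P3 to P6, Gclm and Slc7a11 rose (1.57 ± 0.32 and 2.51 ± 0.37) and Hmox1 and Srxn1 fell (-2.45 ± 0.65 and -1.13 ± 0.24), where 32.9% of all genes changed, 17.8% upward and 15.1% downward. From P3 to P13, Gclm and Slc7a11 rose (1.42 ± 0.32 and 1.77 ± 0.37), where 25.4% changed, 14% upward and 11.4% downward. Control levels of Gclm were 7.44 to 7.66 at P3 and 9.10 in both arrays at P6. The P3 to P20 fall was seen in Srxn1 (-1.25 ± 0.21) and Slc7a11 (none of the P20 controls above background), where 18% changed, 9.34% upward and 8.67% downward. With the chip as a random block, or with the authors' normalized values, the Slc7a11 fall did not pass. The Slc7a11 rises of the first probe were not seen by the second, which differed by -0.69 at P6 and -0.78 at P13 from P3. Markers of other cells moved with these ages. From P3 to P6, 14 of 14 fibroblast, 8 of 10 endothelial and blood and 5 of 7 melanocyte markers rose, and from P3 to P13 13, 9 and 3 did. From P3 to P20, 10 of 10 hair shaft and 4 of 7 melanocyte markers fell. Of 11 suprabasal keratinocyte markers, 5 fell from P3 to P6, 7 to P13 and 4 to P20, where 1 rose. Of 12 markers of wounded epidermis, 4 fell from P3 to P6, 4 to P13 and 7 to P20. The part of these cells in the control changes was not tested.

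Among adults, the 3 mutants were compared with the 1 Mad2f/+ control, with the spread taken from all groups. Gsta4 rose, from 5.58 in the control to 9.79 and 11.96 in the p53f/+ mutants and 7.23 in the mutant without p53f/+ (4.09 ± 0.86, adjusted p = 0.00426). By the brightest probe of each gene it was the 1 member of 8 to change, where 11.7% of all genes did, 5.18% upward and 6.55% downward. The second Slc7a11 probe read 5.72 in the control and 7.87 and 8.72 in the p53f/+ mutants. In the mutant without p53f/+ that probe read 5.59, not above background. Hmox1 was at 8.04 in the control, 9.98 and 10.04 in the p53f/+ mutants and 9.22 in the other mutant (1.71 ± 0.86, adjusted p = 0.25). Gclm was at 8.82 in the control and below it in every mutant, at 7.62, 8.50 and 7.14 (-1.06 ± 0.42, adjusted p = 0.127). In a fit to the 4 adult arrays alone, Gsta4 did not pass. The sum of 10 hair shaft markers was 145200 in the adult control. It was 123.7 and 129.6 in the p53f/+ mutants and 809.9 in the other mutant. The sum of 7 melanocyte markers was 27710 in the control, 4708 and 2190 in the p53f/+ mutants and 9944 in the other mutant. The part of these cells in the adult differences, that of Gclm among them, was not tested.

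The 2 adult mutants with p53f/+ had more of most members than the 1 mutant without. All 8 differences were above 0, with a median of 1.97 against -0.04 over all genes, and 5 genes rose, where 15.2% of all genes changed, 6.86% upward and 8.3% downward. Of 35 other known Nrf2 targets tested, 2 rose and 2 fell (median -0.03). Of 23 tested antioxidant enzymes outside that list, 1 rose and 6 fell (median -0.61). Slc7a11 was at 9.68 and 10.51 with p53f/+ and at 5.21, not above background, without it, at least 22.3-fold higher (adjusted p = 8.59e-06). Its second probe was at least 6.41-fold higher (adjusted p = 0.000337). Srxn1 was at 9.71 and 10.21 against 8.10 (1.86 ± 0.34, adjusted p = 0.00136), and Gsta4 at 9.79 and 11.96 against 7.23 (3.64 ± 0.91, adjusted p = 0.0123). Nqo1, at 7.30 and 7.73 against 5.06, was at least 3.74-fold higher (adjusted p = 0.0139), and Nfe2l2, at 6.30 and 7.57 against 4.84, at least 2.50-fold (adjusted p = 0.0249). The second p53f/+ array held the highest Nqo1, Nfe2l2, Srxn1 and Slc7a11 values of all 24 arrays. That array had no usable detection values. Its background, and so its calls above background, were estimated from the other arrays of its chip. Without the second p53f/+ array the differences were 1.46 for Nfe2l2, 2.23 for Nqo1 and 2.56 for Gsta4 and did not pass (adjusted p = 0.169, 0.0699 and 0.0976).

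That comparison rests on 1 array of the mutant without p53f/+, and that array also stood apart in its cell markers. Its 14 fibroblast markers, all above background, summed to 52000 against 7005 and 2282 in the first and second p53f/+ arrays. In the same order, its 10 endothelial and blood markers summed to 36730 against 321.4 and 4607. Its 12 markers of wounded epidermis summed to 69150 against 189100 and 326900. The part of these cells in the differences was not tested, and with 1 array the p53 allele and the array cannot be told apart. In a fit to these 3 arrays alone no member passed. In the Mad2f/+ control Slc7a11 was at 7.69, between the mutant without p53f/+ and the mutants with it.

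Other known Nrf2 targets were called in both directions. At P6, P13 and P20 more of them rose than fell, while more of all genes fell than rose. Of 35 tested from a list of 40, none rose and 1 fell at P3, where 0.285% of all genes rose and 1.63% fell. At P6, 6 rose and 2 fell, where 9.36% and 13% did, at P13, 7 rose and 5 fell, where 9.85% and 10.4% did, and at P20, 5 rose and 1 fell, where 4.38% and 5.59% did. The medians were 0.04, 0.06, 0.21 and -0.11. In the mean over P6, P13 and P20, 7 rose and 7 fell (median 0.04), where 13.6% and 18.7% of all genes did. The genes that rose included Gsta1, a glutathione transferase, by 3.06 ± 0.61 at P6, 3.92 ± 0.61 at P13 and 2.55 ± 0.56 at P20, and Mgst2, a microsomal glutathione transferase, by 2.74 ± 0.44 at P13 and 2.78 ± 0.41 at P20. Gsta1 and Gsta2 are near-identical, and which of them a probe read was not tested. Akr1b8, an aldo-keto reductase that clears aldehydes, rose by 3.99 ± 0.56 at P13 and 1.96 ± 0.51 at P20. Cbr3, a carbonyl reductase, rose by 3.21 ± 0.40 at P6, and Abcc4, an exporter of conjugates, by 2.43 ± 0.23. Trex1, a DNA exonuclease, rose by 2.31 ± 0.59, 2.65 ± 0.59 and 2.03 ± 0.54 at P6, P13 and P20. At P3 the glutathione peroxidase gene Gpx2 fell (-2.13 ± 0.34, adjusted p = 0.00144). In adults 4 rose and 4 fell, where 5.18% and 6.55% of all genes did, with Gsta1 at 3.92 ± 0.70, Mgst2 at 2.57 ± 0.51 and Abcc3 at 2.46 ± 0.66 among the risers.

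Of 23 tested antioxidant enzymes outside the list of Nrf2 targets, none changed at P3, 2 rose and 5 fell at P6, 3 rose and 4 fell at P13, and 1 rose and 2 fell at P20. Over all genes 9.36% rose and 13% fell at P6, 9.85% and 10.4% at P13, and 4.38% and 5.59% at P20, so falls were more frequent there too. Glrx, glutaredoxin, rose by 2.55 ± 0.40, 2.51 ± 0.40 and 2.71 ± 0.37 at P6, P13 and P20 and by 2.37 ± 0.47 in adults. At P13 Gpx3 rose (3.23 ± 0.64) and Gpx8 fell (-2.27 ± 0.46). Prdx4, the peroxiredoxin of the endoplasmic reticulum, fell by 1.68 ± 0.25 at P6 and 1.37 ± 0.25 at P13, and the endoplasmic reticulum peroxidase gene Gpx7 was at least 5.82-fold lower at P6, with no mutant above background. Sod1, the cytosolic superoxide dismutase, fell at P6 (by 2.02 ± 0.49), and Sod3, the extracellular one, was at least 2.94-fold lower at P20 (adjusted p = 0.000652), with no mutant above background. The fibroblast markers fell with Gpx7 and Prdx4 at P6, from sums of 51240 to 61140 in controls to 1637 to 1784 in mutants, and their part was not tested.

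**Figure D4:**
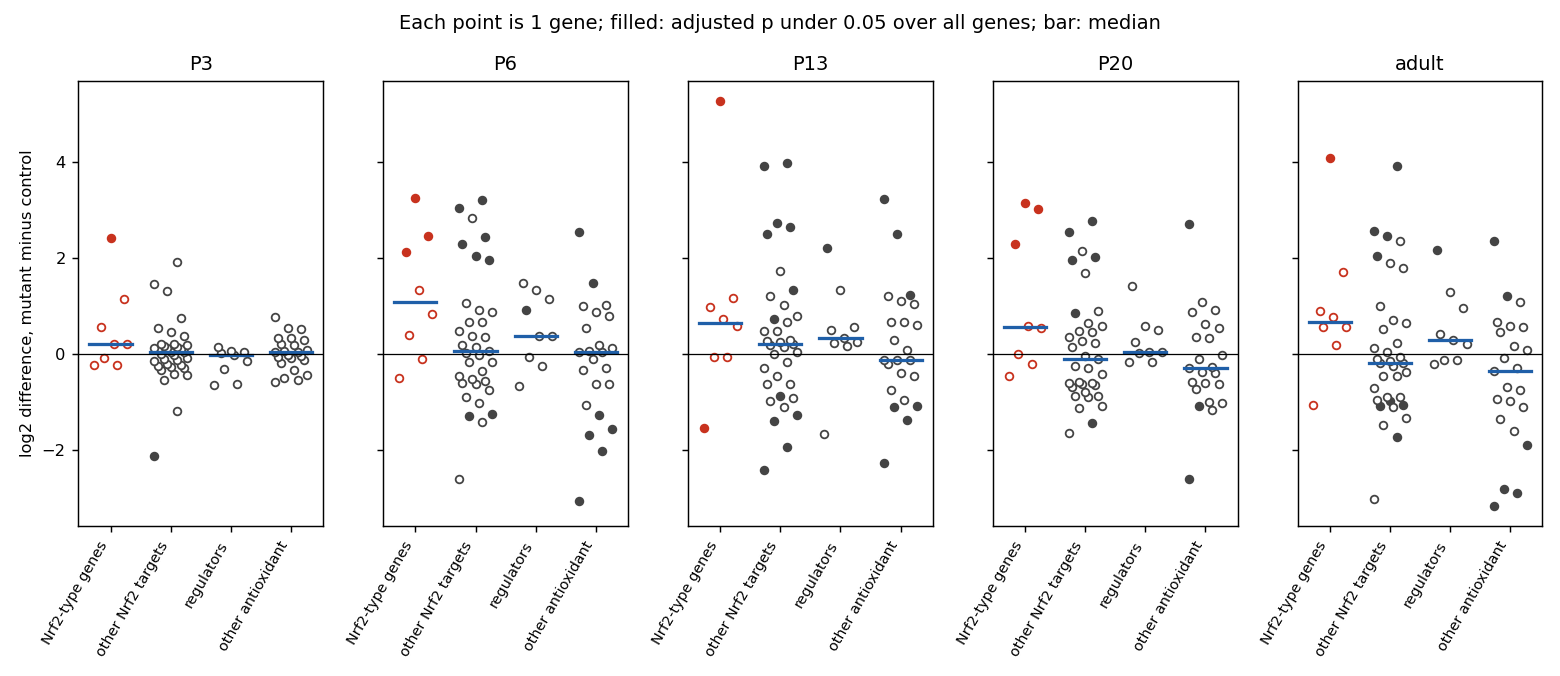
Mutant minus control difference (log2, y axis) of each tested gene in the 4 lists (members, other Nrf2 targets, regulators and partners, and antioxidant enzymes not listed as targets) at each age and in adults. Filled points passed the test over all genes and blue bars are medians. Called genes lie on both sides of 0 in the other targets from P6 on, and the 8 members have medians of 0.21, 1.09, 0.66, 0.57 and 0.67.

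Gsta4 and Srxn1, whose profiles over the 19 assigned P3 to P20 arrays were the most alike among the members (Pearson r = 0.721), both had small proline-rich proteins of the cornified envelope among their nearest profiles. The profiles most like Gsta4 were those of LOC100045967 (r = 0.971), Sprr2e (0.959) and Sprr2g (0.955). The profile most like Srxn1 was that of Sprr1b (r = 0.916), then Ppif and Cnot6l. Hmox1 ran closest to Prss8, a serine protease of the epidermal barrier (r = 0.93), 2210408O09RIK and Crct1. Slc7a11 ran closest to Sdad1 (r = 0.925), Timeless, a replication fork protein, and Sfxn1, a mitochondrial serine carrier, and Gclm to LOC100047339 (r = 0.928), Ubr7 and Marcks. The nearest profiles to Nfe2l2, Txnrd1 and Nqo1 had r of 0.858 (D130027A21RIK), 0.81 (Slc31a2) and 0.721 (Pdcd6ip). These arrays share ages and chips, and the correlations are descriptions.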

How the data were processed

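Epidermal RNA was measured on 24 Illumina arrays. The deposited table holds 1 bead intensity per probe and array, and the values of 4 arrays already had background subtracted, as their negative values show. These were the P20 arrays of chip G and the adult p53f/+ array of chip H. Of the detection columns of the table, 10 held p-values as deposited and 13 held 1 minus p, a fraction by the authors' scanner software. For 1 array, the second adult p53f/+ mutant, the column held bead numbers and was not used. The background of this array was set from the other arrays of its chip. The deposited matrix of log2 values was normalized with limma, per the submitters' processing notes, and served as an alternative. Intensities were background-corrected (normexp, offset 16), quantile-normalized and put on a log2 scale in limma 3.58.1 (R 4.3.3). Of 45281 probes, 20739 had detection p under 0.01 in at least 2 arrays. The brightest probe stood for each of 14392 genes. Probes were renamed through RefSeq tables: 27760 matched directly, 7994 through a synonym, and 9340 kept the name of the file.

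A model with 1 mean for each of 12 groups was fitted over all 24 arrays with empirical Bayes moderation (12 residual and 3.92 prior degrees of freedom), and p-values were adjusted by Benjamini-Hochberg over all genes, with a threshold of 0.05. Where no array of a group was above background, a fold is a bound ("at least"): the mean of the brighter group over the mean, per array, of the higher of the dimmest detected signal and the probe's own. Single probes were adjusted over all probes. The method was also run on simulated data with independent errors and no chip effect. In the real data the estimated correlation within chips was 0.472, so that run cannot give the error rates here. Chips carry the letters A to H here: each age lay on chips of its own, except that P20 and adult arrays shared chip F. All replicates differed, with a smallest root mean square difference between arrays of 0.327 log2 units. The members and gene lists were chosen with earlier results of these data known. Named are all members, Keap1, Mad2l1 and the nearest profiles by Pearson correlation. Other genes were taken from the up to 4 with the highest absolute change among those called per list and comparison. Not all of these are named, so a named gene need not have the highest change of its list.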

Additional observations from a re-analysis of the deposited data

Results flagged for a closer look

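The effect of genotype differed between ages in 4 members, by the test of the difference itself. For Gclm the P13 effect minus the P3 effect was -1.76, and the P20 effect minus the P13 effect was 2.08. For Srxn1 the mean effect of P6, P13 and P20 exceeded that of P3 by 1.52, the P6 effect exceeded it by 1.93 and the P20 effect by 2.10, while the P13 effect minus the P6 effect was -1.40 and the P20 effect minus the P13 effect was 1.57. The Srxn1 difference between P13 and P6 did not pass without any 1 of its 8 arrays. For Gsta4 the mean effect exceeded the P3 effect by 2.70 and the P13 effect exceeded it by 4.12. For Slc7a11 the P6 effect minus the P3 effect was -2.50, the P20 effect minus the P6 effect was 3.24 and the P20 effect minus the P13 effect was 1.97. By the second Slc7a11 probe these differences were 0.79, 0.18 and 0.19, and the last call of the brightest probe held under 3 of 11 other settings. All are on the log2 scale.

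Slc7a11 was also above background in the P3 array whose genotype and sample type disagree. It read 7.11 there, above the 4 P3 controls, the highest of which read 6.99, and below both P3 mutants. Its Mad2l1 level was 7.89, where the controls ran from 7.09 to 7.99 and the mutants were at 4.80 and 5.85. Its summed hair shaft markers came to 116900, where the controls of that age had 99930 to 196100 and the mutants 8004 to 12340.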

How the results depend on the processing

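Counts of members past the threshold moved with the estimate of spread. With only the compared groups in the fit they were 5 at P6, 4 at P13, 1 at P20, 0 for adults and 0 for p53f/+, with array weights 5 at P6, 5 at P13 and 3 for adults, and without chips G and H 5 at P6, 4 at P13, 7 in the mean over P6 to P20 and 3 for adults. The P13 count was 4 also with the authors' values, with offset 50 and with the chip as a fixed or random block. Leaving out 1 array gave 1 to 2 at P6, 1 to 2 at P13 and 2 to 5 for p53f/+.

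For differences between ages, the mean effect against P3 held 1 member with the authors' values, no detection filter, a fixed chip block, only chips with both sides, and without P6 or P13 in the mean, and 1 to 3 with an array left out. P6 against P3 gave 1 with only chips holding both sides, 4 with only the compared groups and 4 with array weights (1 to 2 left out). P13 against P3 gave 1 without the filter and 1 with those chips (0 to 1 left out), and P20 against P3 gave 1 to 2 left out. P13 against P6 gave 2 with a fixed or random block, 0 with those chips, and 4 with only the compared groups, array weights or without chips G and H (0 left out, throughout). P20 against P6 gave 2 with either block and 4 without G and H (1 to 2 left out). P20 against P13 gave 0 with only the compared groups (0 to 3 left out). In controls, P13 against P3 gave 4 with only the compared groups and 5 with array weights (0 to 2 left out), and P20 against P3 gave 1 with the authors' values, 1 with a random block and 4 without G and H. The cause was not tested.

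Directions turned by probe. The second Slc7a11 probe gave 1.75 at P6, 0.79 for P6 against P3, and -0.69 and -0.78 for P6 and P13 controls against P3. The third gave -0.14 at P3, -0.52 for P20 against P13 and -0.22 for P13 controls against P3. The third Srxn1 probe gave 0.31 and 0.37 for P6 and P20 controls against P3. Without chips G and H, Hmox1 in P20 controls against P3 was 1.70. Srxn1 at P6 and Slc7a11 at P3 passed under all 12 settings run on the same probe.

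Over all genes the counts moved by more than 1.5 times: 275 at P3 (209 to 505), 3220 at P6 (1709 to 6526), 2915 at P13 (2430 to 5545), 1435 at P20 (63 to 2590), 1688 in adults (119 to 3270) and 2181 for p53f/+ (150 to 4289). With 1 array left out they were 138 to 269, 1748 to 2088, 1336 to 2207, 939 to 3223, 1558 to 1603 and 1426 to 2058, in the same order. The lowest P20, adult and p53f/+ counts came from fits to the compared groups alone, which hold fewer arrays. Dim probes limit Nfe2l2, Nqo1, Txnrd1 and Gclc. No paired analysis was possible because the replicate numbers were given in accession order and pair no mutant with a control.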
